A study of Mus musculus with 2 samples.

Results

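Coding-exon accessible sites are stretches of open chromatin centred on protein-coding sequence and away from promoters. In mouse kidney 894 such sites were found among 65636 peaks shared by 2 DNase-seq libraries (1.36%). A site was a peak of replicate 1 that overlapped a peak of replicate 2 by 1 base or more, with its midpoint inside a coding interval of a protein-coding transcript and more than 1 kb from every annotated start site of protein-coding genes. That rule set no limit on height, but asking for a peak in both libraries favoured higher peaks. Replicate 1 peaks placed in coding exons by the same rule had a median height of 1.21 without that demand and 2.12 with it. The other shared peaks were sorted by midpoint as well, into 20867 within 1 kb of a start site, 1018 in untranslated exons, 21193 in introns and 21664 between genes. Of 1784 shared peaks with a midpoint in coding sequence, 890 lay within 1 kb of a start site and were left out.

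Kidney tissue came from female mice of strain B6CASTF1/J, an F1 hybrid of C57BL/6J with CAST/EiJ, at an age of 36 days. The mice formed 1 group with no treatment, transgene, second tissue or control, and the labels name both libraries as biological replicates. Females are numbered separately in the labels, but both samples carry 1 donor entry, so the spread between the libraries may be partly technical. Whole tissue was used, so few cells with an open site and many cells with a weakly open one cannot be told apart. Replicate 1 had 124504 peaks and replicate 2 had 68056, without read totals in the sources used here. Promoter peaks in both libraries were present at 9 of 11 kidney marker genes and at 1 of 6 genes typical of other tissues, Snap25.

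DNase I digests chromatin most readily where nucleosomes are absent, and a bound protein shields its own contact bases, which leaves a short gap in the cuts called a footprint. Open chromatin in tissues is found mainly at promoters and enhancers, yet transcription factors also bind inside exons, where the same bases then serve both as codons and as recognition sequence. CTCF, the protein that anchors chromatin loops, and factors of CpG-rich DNA such as NRF1 and the SP/KLF family are among those known to occupy DNA outside classical enhancers.

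The highest sites lay in Angptl6 and Inpp5b. Angptl6 encodes an angiopoietin-like secreted factor, and Inpp5b encodes an inositol polyphosphate phosphatase related to the Lowe syndrome enzyme OCRL. Their central 200 bp are shown because every base is coding and because footprints called in both libraries fill a large part of them. All sequences are from GRCm38 (mm10), 5′ to 3′ on the coding strand of the gene, and capitals mark footprints matched between the libraries. Angptl6 lies on the minus strand at chr9:20878211-20878410 and Inpp5b on the plus strand at chr4:124751421-124751620.
Angptl6: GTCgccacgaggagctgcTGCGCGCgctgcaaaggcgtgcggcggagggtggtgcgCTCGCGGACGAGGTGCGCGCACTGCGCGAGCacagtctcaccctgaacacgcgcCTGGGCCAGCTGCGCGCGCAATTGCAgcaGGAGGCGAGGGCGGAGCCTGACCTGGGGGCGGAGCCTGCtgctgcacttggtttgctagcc
Inpp5b: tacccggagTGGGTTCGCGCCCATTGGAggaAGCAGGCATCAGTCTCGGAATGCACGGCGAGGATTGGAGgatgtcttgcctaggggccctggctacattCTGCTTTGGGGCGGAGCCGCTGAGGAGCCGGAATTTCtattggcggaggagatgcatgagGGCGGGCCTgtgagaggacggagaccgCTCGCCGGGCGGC

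In the Angptl6 window 106 of 200 bases were footprinted, and in the Inpp5b window 117. The Angptl6 peak held 7 matched footprints, the most of any site, and Inpp5b held 5. Eppk1, which encodes the cytolinker epiplakin in a single coding exon, also held 5, at heights of 3.69 in replicate 1 and 3.67 in replicate 2. Its window (chr15:76106331-76106530, minus strand) is shown as the counterpart with many footprints in less accessible sequence.
Eppk1: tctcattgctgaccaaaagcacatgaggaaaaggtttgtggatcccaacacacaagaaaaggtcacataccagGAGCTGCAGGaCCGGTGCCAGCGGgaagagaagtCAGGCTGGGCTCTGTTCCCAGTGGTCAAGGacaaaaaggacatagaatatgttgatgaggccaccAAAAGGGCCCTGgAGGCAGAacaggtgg

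Windows of Synpo2l (chr14:20661041-20661240, minus strand), Chpf (chr1:75477491-75477690, minus strand) and Rasip1 (chr7:45628841-45629040, plus strand) are shown because each holds a CTCF consensus match made of coding bases and lying wholly inside a matched footprint.
Synpo2l: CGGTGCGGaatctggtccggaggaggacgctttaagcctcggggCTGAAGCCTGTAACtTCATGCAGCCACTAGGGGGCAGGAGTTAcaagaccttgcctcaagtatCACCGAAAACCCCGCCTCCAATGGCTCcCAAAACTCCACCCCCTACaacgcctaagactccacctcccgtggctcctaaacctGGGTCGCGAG
Chpf: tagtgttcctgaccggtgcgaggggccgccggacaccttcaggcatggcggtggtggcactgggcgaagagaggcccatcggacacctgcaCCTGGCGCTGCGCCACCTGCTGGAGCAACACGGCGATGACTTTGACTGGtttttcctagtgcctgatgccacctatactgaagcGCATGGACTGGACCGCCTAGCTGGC
Rasip1: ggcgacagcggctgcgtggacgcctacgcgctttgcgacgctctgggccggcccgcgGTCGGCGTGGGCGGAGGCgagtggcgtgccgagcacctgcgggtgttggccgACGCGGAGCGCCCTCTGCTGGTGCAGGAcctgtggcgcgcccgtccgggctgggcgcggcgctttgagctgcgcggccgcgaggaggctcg

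The match reads CCACTAGGGGGCA on the coding strand of Synpo2l. It reads CCAGCAGGTGGCG in Chpf and CCAGCAGAGGGCG in Rasip1, both on the strand opposite to the printed one. The last window belongs to Scnn1a (chr6:125331071-125331270, plus strand), the alpha subunit of the epithelial sodium channel of the collecting duct. It shows a site that runs across a donor splice site: the first 114 bases are coding and the others intronic.
Scnn1a: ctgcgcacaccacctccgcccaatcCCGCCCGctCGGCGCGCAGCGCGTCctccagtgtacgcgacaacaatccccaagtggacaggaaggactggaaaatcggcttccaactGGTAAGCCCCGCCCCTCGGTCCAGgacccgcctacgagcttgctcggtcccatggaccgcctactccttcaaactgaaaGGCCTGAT

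Coding-exon sites were about as high as intronic and intergenic peaks and lower than peaks at start sites. Heights are the authors' signal values in units no source here names, and each library is described on its own. The median height was 2.12 in replicate 1 (quartiles 1.31 and 3.30, range 0.288 to 27.4) and 1.27 in replicate 2 (quartiles 0.876 and 2.04, range 0.438 to 22.8). Intronic peaks had medians of 2.15 and 1.29, and intergenic peaks 2.10 and 1.26. Untranslated-exon peaks were at 2.32 and 1.40. Peaks within 1 kb of a start site stood apart with medians of 4.61 and 2.83. With 1 group and no contrast, these are descriptions and no test was made between classes.

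**Figure D1:**
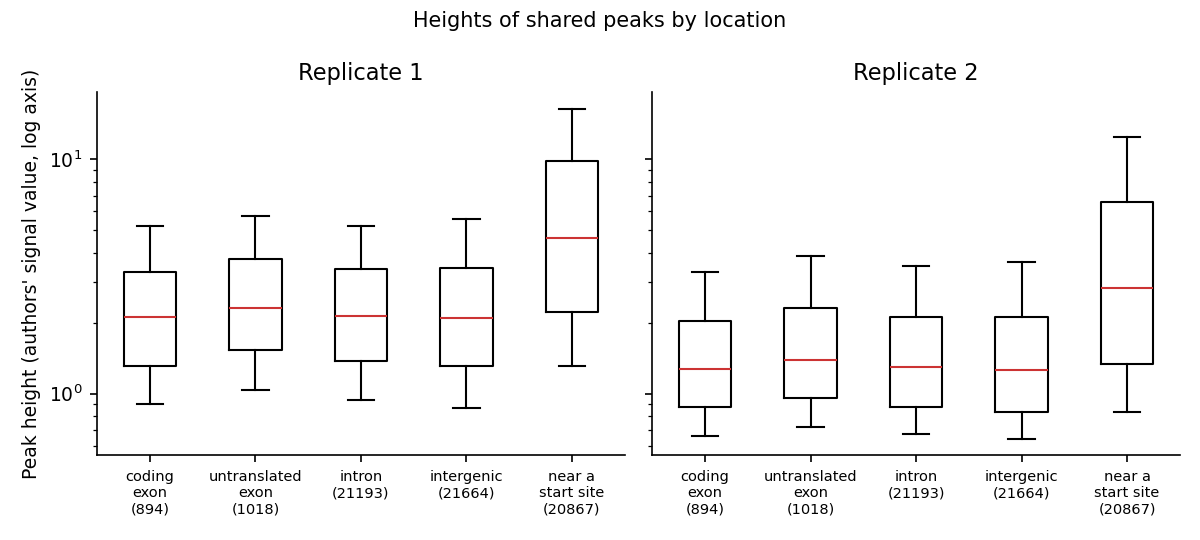
Height of shared peaks (authors' signal value, log axis) by location in replicate 1 and replicate 2, with the number of peaks under each box. Boxes give the quartiles with the median as a line, and whiskers run from the 10% to the 90% quantile: coding-exon medians of 2.12 and 1.27 sit beside those of introns, below 4.61 and 2.83 near start sites.

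The box plot of heights by location shows the same order of classes in both libraries. Single sites kept their rank between libraries about as well as intronic peaks. Across the 894 sites the log2 heights had a Pearson correlation of 0.884 and the heights a Spearman correlation of 0.876, against 0.880 and 0.865 across introns and 0.968 and 0.973 near start sites. Sites within a library share its depth and processing, so these values describe the libraries and carry no p. After centring on all shared peaks, the log2 ratio of replicate 2 over replicate 1 had a median of 0.00 and an SD of 0.46 over the sites. Of replicate 1 peaks with a coding-exon midpoint, 49.5% had a partner in replicate 2. The share was 52.7% of all replicate 1 peaks, 46.7% in introns and 47.8% between genes, and since the rule used this overlap nothing is read from it.

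**Figure D2:**
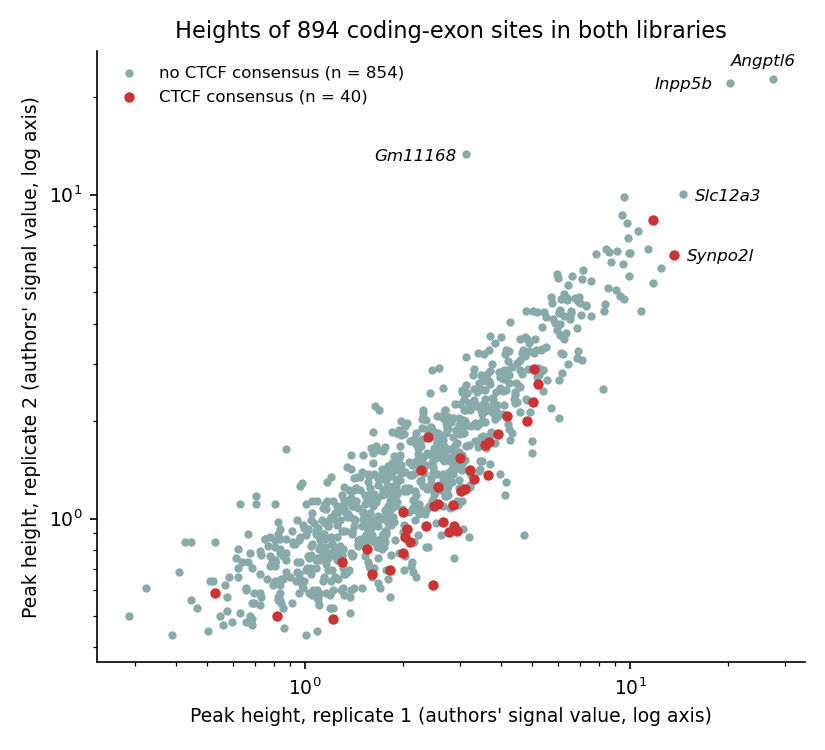
Height of each of the 894 coding-exon sites in replicate 1 (x, log axis) and replicate 2 (y, log axis), as the authors' signal values, with the 40 sites that hold a CTCF consensus in red. Angptl6 and Inpp5b stand highest in both libraries, Gm11168 is far higher in replicate 2 (13.3) than in replicate 1 (3.12), and most red points lie along the lower edge of the cloud.

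In the plot of one library against the other, sites lay off the main cloud in both directions. The 4930407I10Rik site was lower in replicate 2, with heights of 4.705 and 0.886. Gm11168, a predicted gene at the start of chromosome 9, had a height of 3.12 in replicate 1 and 13.3 in replicate 2. Its sequence is repetitive: every 32-base word of its window occurs more than once on the primary chromosomes, and 1 of them 109 times. The part that multiply mapped reads had in this value was not tested. Such sequence was rare among the sites, since 838 (93.7%) had no word that occurs again, and in 3 sites over 50% of the words recurred. Those were Gm11168, the zinc finger gene Zkscan3 and the selenium-binding protein gene Selenbp2, and without them the median heights were 2.12 and 1.27.

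The 10 highest sites by mean percentile fell in genes of varied function, from secreted factors to sarcomere proteins and tubular transporters. The Angptl6 site reached 27.4 in replicate 1 and 22.8 in replicate 2, in the first of its 5 coding exons and 1416 bp from the nearest start site. Inpp5b had 20.3 and 22.1, in coding exon 6 of 23. Both sites lay wholly in coding sequence, at a GC content of 71.5% and 64% in their windows. Angptl6 lacked a promoter peak shared by the libraries, and Inpp5b had one. The start of an annotated processed transcript, Gm12915, lay 167 bp from the middle of the Inpp5b site.

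Below these came Slc12a3, the thiazide-sensitive sodium chloride cotransporter of the distal convoluted tubule, with heights of 14.5 and 10.02. Its site overlapped the last coding exon of a short transcript with 4 coding exons and lay outside the coding sequence of the longest one. Pde4dip, which encodes the centrosome and Golgi protein myomegalin, had heights of 9.57 and 9.83 at the donor end of coding exon 12 of 47. Capn2, the large subunit of a calcium-activated protease, had heights of 11.8 and 8.33 across an exon of 84 bp. The Capn2 peak spanned both splice sites, and its CTCF match lay outside the exon. The start of the antisense gene Gm37885 lay 48 bp from its middle. B430305J03Rik, a gene with 1 coding exon and no shared promoter peak, had heights of 9.46 and 8.65.

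Myom3, which encodes a myomesin of the sarcomeric M-band, had heights of 9.77 and 8.15 over coding exon 27 of 36. That exon is 68 bp long and made up 22.7% of the peak. Cyp4f39, a cytochrome P450 fatty acid hydroxylase, had heights of 10.6 and 7.70 in coding exon 6 of 12. Synpo2l, a Z-disc protein related to synaptopodin, had heights of 13.6 and 6.52 in its last coding exon of 3048 bp. Scnn1a had heights of 11.3 and 6.80 in coding exon 2 of 12. Of these 10 sites, 7 belonged to genes with a promoter peak in both libraries, and Angptl6, B430305J03Rik and Cyp4f39 did not.

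Sites were denser in coding sequence than in introns or between genes. Coding sequence more than 1 kb from start sites came to 25.5 Mb and held 35.0 sites per Mb. Untranslated exons held 32.4 shared peaks per Mb, introns 23.5 and intergenic sequence 13.0, by the same rule. All bases of a class were counted, so assembly gaps and sequence to which reads cannot be mapped were not taken out. The part of this in the differences between classes was not tested. Among shared peaks over 1 kb from a start site, coding-exon sites made up 2.00% (exact 95% binomial interval 1.87 to 2.13, counting error only). The median distance to the nearest start site was 4904 bp, with a range from 1004 bp to 210835 bp at Tenm2, a teneurin adhesion gene with heights of 2.97 and 1.31.

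The density varied with the place of the exon in its transcript. For 872 sites inside the longest coding transcript of their gene, internal coding exons held 538 sites, 61.7% of sites on 72.2% of the eligible bases, or 29.6 per Mb. Last coding exons held 224 sites at 47.7 per Mb. First coding exons held 44 at 43.5 per Mb, and genes with 1 coding exon held 66 at 50.6 per Mb. By the length of the coding part, the density was 21.9 per Mb in exons of up to 100 bp and 41.5 in those of 500 to 1000 bp, and it was 34.6 above 1000 bp.

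**Figure D3:**
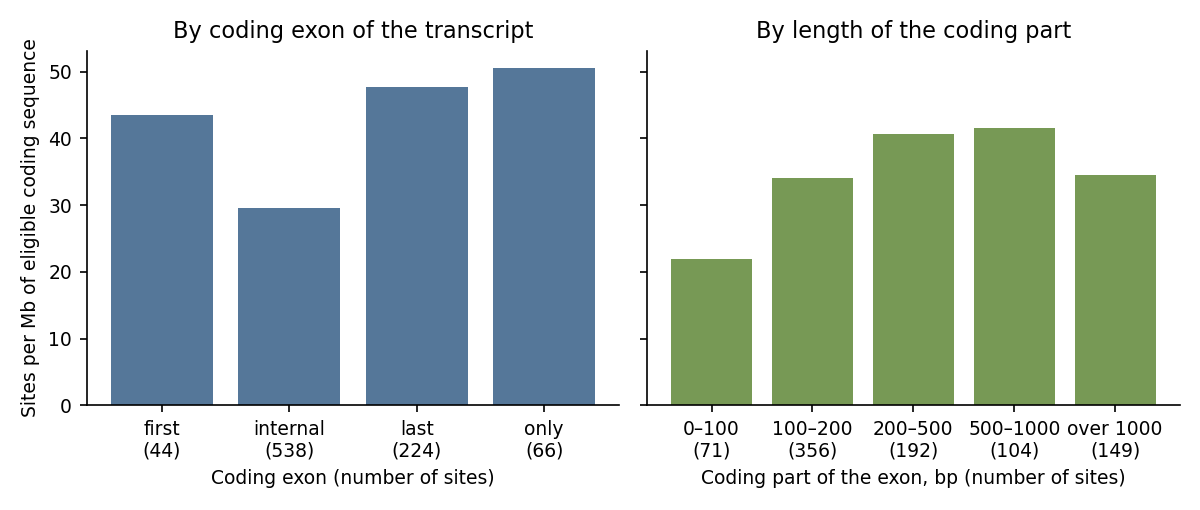
Coding-exon sites per Mb of eligible coding sequence, by place of the exon in the longest transcript (left) and by length of its coding part in bp (right), with the number of sites in parentheses. Internal exons had the lowest density by place (29.6 per Mb) and exons of up to 100 bp the lowest by length (21.9 per Mb).

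The bar charts of density count each site once and have no replicate error, since both libraries define a site together. Many sites were larger than the exon below them. Peaks had a median width of 190.5 bp (range 54 to 580), against 200 bp over all shared peaks, and the coding part below a site had a median of 207 bp. The peak reached no splice site in 381 sites (42.6%), spanned the acceptor alone in 185, the donor alone in 164 and both in 164. Heights hardly varied between these forms, with medians from 1.98 to 2.20 in replicate 1 and from 1.15 to 1.32 in replicate 2. Wholly coding peaks numbered 325 (36.4%).

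The sites farthest from start sites were lower. Median replicate 1 heights were 2.22 for the 196 sites at 1 to 2 kb, 2.26 at 2 to 5 kb, 2.18 at 5 to 10 kb, 1.88 at 10 to 50 kb and 1.28 for the 35 sites beyond 50 kb. In replicate 2 the nearest and farthest groups had medians of 1.30 and 0.784. CpG-rich windows, with a GC content over 50% and an observed over expected CpG ratio over 0.6, made up 42.9% of sites at 1 to 2 kb, 12.5% at 10 to 50 kb and 17.1% beyond 50 kb. At the limit of the rule, Fzd1 at 1004 bp (heights 1.08 and 0.896) and Sfpq at 1006 bp (1.88 and 1.16) were just outside the excluded zone. Junb at 996 bp (1.75 and 1.41) and Gpr153 at 991 bp (3.33 and 1.37) fell just inside it and are not sites. Starts of noncoding genes were not part of the rule, and 39 sites (4.36%) lay within 1 kb of one. Of these sites, 18 lay near the start of an antisense gene and 9 near that of a miRNA gene. With starts of all gene types in the rule, sites made up 2.02% of distal shared peaks, against 2.00% by the main rule. By number, the 39 sites are thus no sign of an excess near noncoding starts. Their median heights were 2.65 and 1.51, against 2.11 and 1.26 for the sites kept with all starts in the rule.

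The sites were rich in GC compared with other coding exons. Their windows of 200 bp had a median GC content of 57%, against 49% over 142176 coding exons beyond 1 kb from a start site, 51.5% in intronic peaks and 62.5% near start sites. Windows of the coding exons at large were centred on the exon, whose coding part had a median of 126 bp, against 207 bp below a site. They thus differ from the site windows in how much flanking sequence they take in. The observed over expected CpG ratio had a median of 0.409, against 0.314 over all coding exons and 0.219 in intronic peaks. CpG-rich windows numbered 213 (23.8%), against 22.9% of all shared peaks, a share carried by the 61.3% near start sites. In intronic peaks it was 2.68%, in intergenic peaks 6.37%, and over all coding exons 4.77%.

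The GC excess over coding sequence at large was present at each codon position. At the first, the second and the third position, sites had 62.7%, 47.4% and 67.8% GC, and all coding sequence had 55.4%, 42.3% and 57.6%. Bases inside matched footprints were richer still, with 69.1%, 54.1% and 72.7%. Footprints themselves showed no preference for a codon position: 14.2% of bases at each of the 3 positions were footprinted (14.18%, 14.22% and 14.16%). CpG-rich sites had median heights of 2.65 and 1.44, against 1.96 and 1.24 for the 681 others.

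Most sites carried a footprint found in both libraries. A matched footprint, one overlapping its partner over at least 50% of the shorter, lay in 675 sites (75.5%, exact 95% interval 72.6 to 78.3, counting error only), against 76.7% of all shared peaks, 74.6% in introns, 75.4% between genes and 80.3% near start sites. The sites' share was thus near that of all shared peaks. Among peaks of like width (160 to 220 bp) and replicate 1 height (1.31 to 3.30), it was 82.3% of 350 sites, 78.2% in introns, 80.6% between genes and 65.5% near start sites. By number, 350 sites held 1 matched footprint, 215 held 2, 91 held 3, 16 held 4, 2 held 5 and 1 held 7, while 219 held none. Matched footprints in sites had a median width of 18 bp, against 19 bp over all matched footprints.

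**Figure D4:**
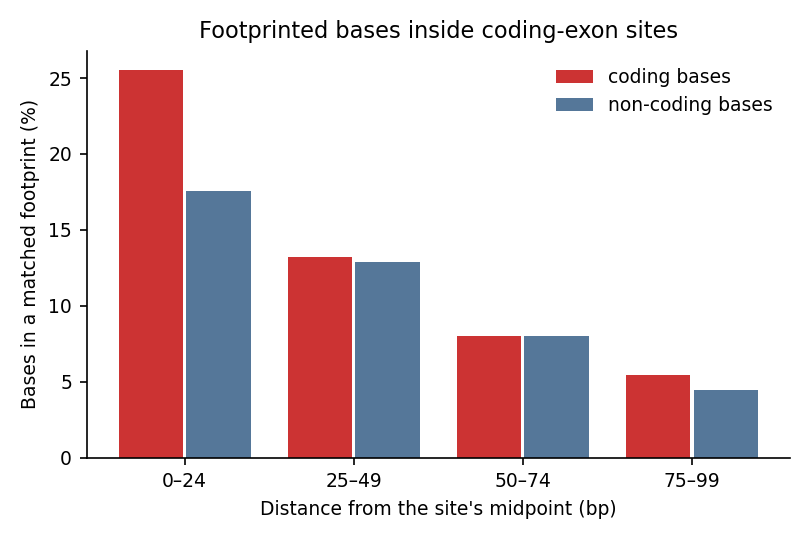
Share of bases (%) lying in a footprint matched between the libraries, for coding (red) and non-coding (blue) bases of the 894 sites, by distance from the midpoint of the site in bp. The share fell from 25.5% of coding bases within 25 bp of the midpoint to 5.45% at 75 to 100 bp, and the coding and non-coding bars differ mainly in the innermost bin (17.6% for non-coding bases).

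Over whole sites, 14.2% of coding bases were footprinted and 7.84% of non-coding bases. The bars by distance show how this depends on place, because the midpoint is coding by the rule. At 25 to 50 bp from the midpoint the shares were 13.2% and 12.9%, and at 50 to 75 bp 8.04% and 8.03%. Within 25 bp they were 25.5% of 41940 coding bases and 17.6% of 1866 non-coding bases.

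Among motifs with more than 1 match, CTCF had the largest share of its matches inside footprints. Consensus sequences of 24 factors were searched on both strands of each 200-bp window, and a match is a string of letters, not a binding event. The CTCF consensus was present in 40 sites (4.47%, exact 95% interval 3.22 to 6.04, counting error only), against 4.3% of all shared peaks, 4.69% in introns, 6.56% between genes and 1.40% near start sites. In windows of the same length centred on coding exons at large, with a median coding part of 126 bp, the share was 0.0936%. Of the 40 matches, 36 (90%) lay wholly inside a matched footprint. That share was much the same elsewhere, at 87.4% in introns, 88.2% between genes and 89.5% near start sites. Of the matches in sites, 32 (80%) were made of coding bases alone, where 78.1% of all window bases were coding. Matches lay a median of 18 bp from the midpoint.

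Sites with the CTCF consensus were lower in replicate 2, relative to all shared peaks, than other sites. Their median height was 2.71 in replicate 1 and 1.11 in replicate 2, and sites without it had 2.06 and 1.28. The centred log2 ratio of replicate 2 over replicate 1 had a median of -0.59 with the consensus, and 37 of 40 were below 0. Without the consensus the median was 0.02, with 411 of 854 below 0. The shift was not particular to coding exons, as intronic peaks with the consensus had a median of -0.51 (911 of 993 below 0) and intergenic ones -0.53 (1308 of 1420). Replicate 2 also had fewer peaks, and the part of depth in this shift was not tested.

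Among the 5 highest sites with a footprinted CTCF match, Capn2 had heights of 11.8 and 8.33 and Synpo2l 13.6 and 6.52. Chpf, a chondroitin polymerizing factor, had heights of 5.05 and 2.90 in coding exon 2 of 4. Rasip1, a Ras-interacting protein of endothelial cells, had 5.22 and 2.60 in coding exon 2 of 11. Pgls, the 6-phosphogluconolactonase of the pentose phosphate pathway, had 5.00 and 2.29. A second site in Rasip1, in its last coding exon, was higher at 9.47 and 6.11, held no CTCF match and lay 76 bp from the start of the antisense gene A030001D20Rik.

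Motifs of CpG-rich promoters appeared at lower rates than near start sites. The NRF1 consensus was in 18 sites (2.01%), against 0.198% of intronic peaks, 6.59% near start sites and 0.0999% of coding exons, and 17 of the 18 windows were CpG-rich. The SP/KLF sequence GGGCGGG was in 57 sites (6.38%), against 4.92% in introns, 36.1% near start sites and 1.60% of coding exons. The ETS sequence CCGGAAG was in 36 sites (4.03%), against 1.97%, 11.6% and 2.18%. Of SP/KLF matches 24 of 64 (37.5%) lay inside a matched footprint, and of NRF1 matches 10 of 21 (47.6%), counting a match on each strand it reads on. Both shares were lower than elsewhere. For SP/KLF they were 44.9% in introns, 45.0% between genes and 56.7% near start sites. For NRF1 they were 66.1%, 72.3% and 81.3%.

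**Figure D5:**
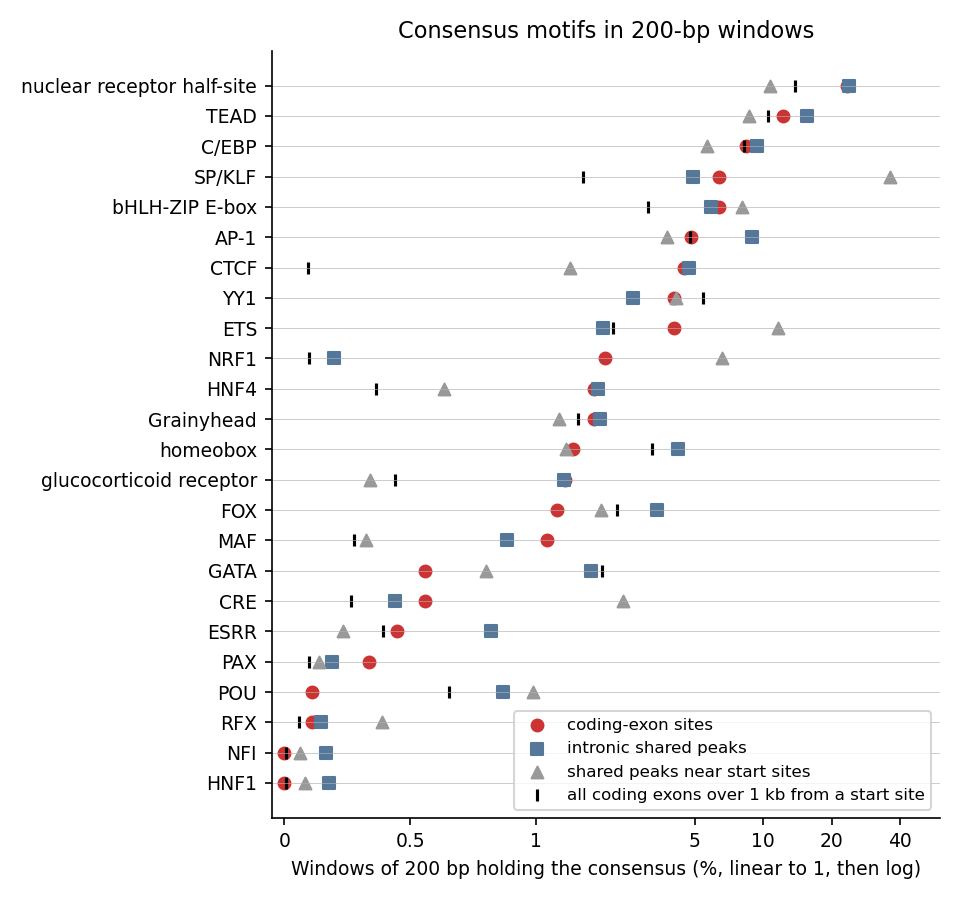
Share of 200-bp windows (%, axis linear to 1 and logarithmic above) that hold each of 24 consensus sequences, for coding-exon sites, intronic shared peaks, shared peaks near start sites and all coding exons over 1 kb from a start site. CTCF stands at 4.47% of sites against 0.0936% of all coding exons, while homeobox, FOX and GATA sequences lie lower in sites than in intronic peaks.

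The chart of motif shares places the sites between introns and start sites for several factors. AT-rich sequences were at lower shares than in introns. The homeobox core TAATTA was in 13 sites (1.45%, introns 4.20%), and the forkhead sequence TGTTTAC in 11 (1.23%, introns 3.39%). The sequence AGATAAG, bound by GATA factors, was in 5 sites (0.559%, introns 1.74%). AP-1, TGANTCA, was in 43 sites (4.81%, introns 8.96%). The nuclear receptor core AGGTCA, which also occurs inside the ESRR sequence TCAAGGTCA, was in 210 sites (23.5%, introns 23.9%). HNF4, the hepatocyte nuclear factor active in proximal tubule, had its sequence CAAAGTCCA in 16 sites (1.79%, introns 1.86%). Of these matches 3 (18.8%) lay inside a matched footprint, against 24.9% in introns. HNF1 and NFI sequences were in no site, and in 0.179% and 0.165% of intronic peaks. In all, 142 sites held at least 1 of the 24 sequences wholly inside a matched footprint.

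Accessible coding exons were spread over many genes. They lay in 822 of 21938 protein-coding genes (3.75%), of which 761 had 1 site, 50 had 2 and 11 had 3 or more. Genes with a site had more eligible coding sequence than genes at large, with medians of 1622 and 941 bp. A promoter peak in both libraries was present at 634 of the 822 genes (77.1%), against 60.7% of all genes and 65.2% of genes with eligible coding sequence. The other genes held 204 sites, with median heights of 2.22 and 1.19.

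The 11 genes with 3 or more sites had from 566 bp (Mindy1) to 25486 bp (Dst) of eligible coding sequence. Syne2, the giant nuclear envelope protein nesprin-2, had 4 sites between coding exons 19 and 102 of 115, at heights from 0.668 to 3.69 in replicate 1 and from 0.734 to 1.81 in replicate 2. Dst, which encodes the cytolinker dystonin, had 3 sites from 1.46 to 2.48 and from 1.05 to 1.86. Synpo2l, Gpr179, Dop1b and Lor each had all 3 of their sites in 1 coding exon. In Gpr179, an orphan receptor of the retina, this was the last exon of 7182 bp, with heights from 0.919 to 4.21 and from 0.846 to 1.96. Lor, which encodes the epidermal protein loricrin, had heights from 0.863 to 2.31 and from 0.458 to 1.26 in its only coding exon. Myom3, Mindy1, Ccdc162, Pdzd2 and Cand2 had 3 sites each as well.

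In the tubule segment lists the genes with a site were Slc12a3, Trpm6 and Scnn1a, and the shares lay on both sides of 3.75%. Lists this short can hold no site at the 3.75% of all genes, so no difference between segments is read from them. The lists were chosen with earlier results of these data known and are read beside the 3.75% of all genes, without a test. No site lay in any of 29 proximal tubule genes or 12 thick ascending limb genes, while with the authors' wider peak set 2 genes of each list had one (6.90% and 16.7%, against 5.90% of all genes). Among 11 genes of the distal convoluted tubule and connecting tubule, Slc12a3 had a site and so did Trpm6, the magnesium channel, whose site had heights of 2.08 and 1.05. In the collecting duct it was 1 of 16, Scnn1a. Of 371 solute carrier genes 11 had a site (2.96%), the highest after Slc12a3 being the bicarbonate transporter Slc4a5 at 9.90 and 5.60 and the mitochondrial coenzyme A carrier Slc25a42 at 8.39 and 4.59. Solute carriers with a site that the proximal tubule list did not hold included Slc23a1 (2.20 and 1.70), Slc22a7 (1.65 and 0.988) and Slc37a4 (1.30 and 1.08).

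Endothelial genes had the largest share of the 22 lists in the stricter peak set, with 4 of 17 genes (23.5%) and 5 sites, or 139 sites per Mb of eligible coding sequence. In the wider set their share was the same, and protocadherins (33.3%) and basement membrane genes (31.6%) were above it. Nos3, the endothelial nitric oxide synthase, had heights of 6.12 and 3.24 in coding exon 25 of 26, and the start of the antisense gene Gm15587 lay 57 bp away. Tek, the angiopoietin receptor TIE2, had sites in coding exons 15 and 16 of 23, at 3.48 and 2.16 and at 2.89 and 0.917. Plvap, of the fenestral diaphragm, had 2.33 and 1.46, and Flt1, a VEGF receptor, had 1.97 and 1.39. Of 13 stroma and mural cell genes, Notch3 had sites at 5.37 and 2.88 in its last coding exon and at 2.84 and 1.41 in coding exon 24 of 33.

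Among 16 immune cell genes, Spi1 and Csf1r had a site. Spi1, which encodes the myeloid transcription factor PU.1, had heights of 12.4 and 5.93 in its last coding exon. Csf1r, the receptor for macrophage colony-stimulating factor, had 4.79 and 4.36 in coding exon 3 of 21, with 4 matched footprints and no shared promoter peak. Of 16 podocyte genes Synpo, which encodes synaptopodin, had a site at 3.54 and 1.79. Elf3, an epithelial ETS factor, was the only one of 33 kidney transcription factors with a site, at 1.75 and 1.66. Of 18 polycystic kidney disease and cilia genes, the axonemal dynein gene Dnah11 had a site at 0.529 and 0.846.

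No site lay in 18 housekeeping, 18 striated muscle, 18 neuronal or 19 basement membrane genes, beside 3.75% of all genes. In that order the lists had 0.0150, 0.175, 0.0351 and 0.0986 Mb of eligible coding sequence, where coding sequence at large held 35.0 sites per Mb. No test was made on these counts, so absence from a gene type is not read from them. The muscle list did not hold Myom3 or Synpo2l. Among families, 3 of 44 collagen genes (6.82%) had a site, led by Col12a1 at 5.09 and 3.58. So did 11 of 394 Zfp genes (2.79%), led by Zfp771 at 9.89 and 6.60 and Zfp608 at 7.58 and 5.41. Hoxb2 was the only one of 39 Hox genes, at 3.42 and 2.63, and Pcdh8 the only one of 69 protocadherins, at 3.49 and 1.51. Of 94 potassium channel genes Kcnj9 had a site at 3.67 and 1.72 and Kcnma1 one at 0.445 and 0.846. Cdh22 was the only one of 23 cadherins, at 3.18 and 0.876. None of 1135 olfactory receptor genes had one, on 0.110 Mb of eligible coding sequence.

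By chromosome, the density ranged up to 49.0 sites per Mb on chromosome 11, with 92 sites. The X chromosome held 11 sites, or 1.23%, where 4.001% of the eligible coding sequence is on X. Intronic and intergenic peaks had 1.14% and 2.03% of their number on X.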

How the data were processed

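Per the file descriptions, the authors called peaks, false discovery rates and footprints for each library from an alignment to mm10. Which aligner and which peak caller they used is not given in the sources used here. Peak heights as deposited are a signal value on an unstated scale, used within a library or as a log2 ratio centred on all shared peaks. The deposited false discovery rate files (a q-value per interval) hold values below 0.05. The lowest rate in any site was at most 0.000509 in replicate 1 and 0.000837 in replicate 2. Over all shared peaks it was at most 0.000997 and 0.000981, so low rates come with the stricter peak set and are not particular to the sites. Footprints carry the p-value 0.01 in every row of the deposited files, read here as a set-wide threshold, so no footprint had its own score. Without read totals, depth is unknown.

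The stricter peak set of each library was used, with genes from GENCODE release M21 and the GRCm38 sequence on 21 chromosomes. Intron means inside a protein-coding gene, and intergenic means outside one. Where several replicate 2 peaks overlapped, the highest gave the height. Python 3.11.15, numpy 2.4.6, pandas 2.3.3 and scipy 1.17.1 were used. With 1 group of 2 libraries, no test was made. Intervals are exact binomial at 95% and cover counting error only. The members, lists and motifs were chosen with earlier results of these data known. The 22 gene lists comprised 14 written by hand and 8 chosen by symbol.

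Named genes were the 10 sites highest by mean percentile, the 10 genes with most sites, up to 3 members of each list, the 5 highest footprinted CTCF sites, the 5 sites with most matched footprints and those nearest the distance limit. Gm11168, 4930407I10Rik, Tenm2, Flt1, Lor, Zkscan3, Selenbp2 and the second sites of Rasip1, Tek and Notch3 were named after their values were seen. Some genes within the rule are not described. CTCF, HNF1, NFI, RFX, MAF, NRF1, PAX and the glucocorticoid receptor were searched by longer consensus sequences. Besides those spelled out with the results, the sequences were TGACGTCA (CRE), CACGTG (bHLH-ZIP), GGAATG (TEAD), TTNNGCAA (C/EBP), AAGATGG (YY1), AACNGGTT (Grainyhead) and ATTTGCAT (POU). The steps were tested on simulated data, where 2100 of 2100 peaks got the right class and 1200 of 1200 overlaps matched a direct count. All 480 of 480 planted motifs were found, each planted as an exact match to its consensus. The simulated peaks held none in untranslated exons and none at the edge of the 1 kb limit. Alternatives changed the peak set, overlap, start-site distance and annotation, place in coding sequence, peak strength, footprint matching, window and library. The count without recurring sequence, in words of 32 bases, was added after the data had been seen. Alleles of the hybrid were not analysed here.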

Additional observations from a re-analysis of the deposited data

How the results depend on the processing

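With the wider peak set there were 1416 sites in place of the 894, with median heights of 1.47 and 0.907, 57.8% with a matched footprint, 55.4 sites per Mb, 5.90% of genes, and 16 in place of 9 gene lists above the share of all genes. With the stronger 50% of peaks there were 374 sites, with heights of 3.56 and 2.24, 92.3% with a matched footprint, 3.21% with CTCF, a GC content of 58.5%, 14.6 per Mb and 1.62% of genes. Beyond 2500 bp from start sites the share among distal shared peaks was 1.62%, the GC content 56.25% and the share of genes 2.74%. With at least 50% of the peak in coding sequence 3.49% of genes had a site. Footprints matched by 1 base lay in 78.8% of sites, and windows of 300 bp had a GC content of 56%. Leaving out either library gave from 968 to 1808 sites, from 37.9 to 70.8 per Mb, from 4.002% to 7.37% of genes, and footprints of that library alone in 85.4% to 89.9% of sites; without replicate 2 the replicate 1 height was 1.21. The other values stayed within their main interval, or within 1.5 times a count, under the alternatives run. In the wider set, against 5.90% of all genes in place of 3.75%, lists that had been below the share of all genes came above it: proximal tubule (6.90%), thick ascending limb (16.7%), kidney transcription factors (18.2%), basement membrane (31.6%), solute carriers (6.47%), protocadherins (33.3%) and Hox genes (7.69%). Of the 822 genes, 818 kept a site in the wider set, 602 beyond 2500 bp and 355 among stronger peaks. No paired analysis was possible because there is 1 group. Depth is unknown, so a coding exon without a site is not shown to be closed, and replicate 2, with fewer peaks, sets which peaks count as shared.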

Other observations

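In the wider peak set, 23 of 69 protocadherin genes had a coding-exon site, against 1 of 69 in the stricter set. Of these 23, 21 belong to the gamma cluster, whose genes share constant coding exons. How many separate sites these genes had was not counted. Basement membrane genes went from 0 of 19 to 6 of 19 in the wider set and kidney transcription factors from 1 of 33 to 6 of 33.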
